A study of Macaca mulatta with 6 samples.

Results

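The 38 genes examined here encode Polycomb proteins and other regulators of histone methylation, together with the deacetylases HDAC1 and HDAC2. They were chosen by name, and each was read from the row that carries its symbol in the deposited tables. Of the 38, 36 had such a row, out of 30246 gene rows in all. All 36 passed the filter on low values that left 13685 rows for testing (at least 2 libraries at or above 1 FPKM). HDAC1 had more than 1 row, and the row with the highest mean was used. RNF2 is named only through a table of gene identifiers and is given apart, and BMI1 was not analysed here.

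RNA was sequenced from 6 rhesus monkey (Macaca mulatta) induced pluripotent stem cell lines, 1 library each. Naive lines, 2 female and 2 male, grew in the medium labelled 6SM, with 15% KnockOut serum replacement, N2 supplement, 4 ng/ml bFGF and 10 ng/ml human LIF. This medium also held the inhibitors CHIR99021 at 3 µM (GSK3), PD0325901 at 0.5 µM (MEK), SB203580 at 10 µM (p38) and SP600125 at 10 µM (JNK). Primed lines, 2 male, grew in hESM with 20% serum replacement and bFGF; feeder cells were taken off before RNA was isolated in every group. The labels name no donor and give no female primed line, so state can be compared at the same sex only within male lines. Even there, state cannot be told apart from sequencing depth, which was lower in the naive male libraries. Among naive lines, sex and line cannot be told apart.

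Polycomb repressive complex 2 (PRC2) methylates histone H3 at lysine 27, a mark of silent developmental genes, through the alternative catalytic subunits EZH1 and EZH2. Polycomb repressive complex 1 (PRC1) attaches ubiquitin to histone H2A; its canonical forms carry a chromobox (CBX) subunit that reads the H3K27 mark, and its variant forms carry RYBP. In pluripotent cells these complexes hold lineage genes in check, while demethylases and the H3K9 and H3K79 methyltransferases set the other marks considered here.

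Expression is in FPKM, fragments scaled to transcript length and to the mapped fragments of the library, so levels can be set side by side between genes. Depth, estimated from the deposited error bounds as effective fragments, was 8294782 and 10013491 in naive female, 1754857 and 1478692 in naive male and 9970137 and 7607125 in primed libraries. The median regulator rested on 441 and 500.5, 79.1 and 59.3, and 565.1 and 415.5 effective fragments in the same libraries. These cover counting error and uncertain isoforms, and not the spread between lines. A list of 8 pluripotency genes, all tested, summed to 1273.4 and 1819.7 FPKM in naive female, 906 and 972 in naive male and 451 and 363 in primed lines; NANOG was at 0.933 and 2.09 FPKM in the primed lines. Neural markers (5 of 6 with a row, none of them at 0 throughout) summed to 31 and 36, 118 and 102, and 504 and 707 FPKM, with CRABP1 at 408 and 634 FPKM in primed lines. Fibroblast and feeder genes (9 of 10 with a row) summed to 396 and 534, 560 and 455, and 661 and 747 FPKM in the same groups. Of these VIM was called lower in naive lines, and THY1 was called higher in naive female against primed lines. Within this list primed line 2 stood apart from primed line 1 in COL3A1 (28.6 against 0.414 FPKM) and LUM (19.9 against 0.111 FPKM). Mesoderm markers (5 of 5 with a row) ran the other way, summing to 31.5 and 13.5 FPKM in naive female, 19.7 and 31.6 FPKM in naive male and 3.68 and 2.27 FPKM in primed lines, and of these EOMES and KDR were called higher in naive lines. Endoderm markers (5 of 5 with a row) summed to 31.8 and 13.2, 17.7 and 15.9, and 2.78 and 13.2 FPKM in the same groups. Trophoblast and amnion markers (6 of 6 with a row) summed to 26.9 and 8.62, 17.6 and 17.1, and 13.5 and 7.29 FPKM. No gene of these last lists was called in any comparison. The part of these cells in the results was not tested. In bulk RNA fewer cells of a type and less RNA per cell cannot be told apart.

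Of the 36 regulators, 4 were called between naive and primed lines, or 11.1%, which is near the 11.3% of all tested rows. JARID2, a PRC2 cofactor, was higher in naive lines, and EZH1, CBX8 and ASXL1 were lower, while the remaining 32 did not pass the test (limma on log2(FPKM + 1), two-sided, adjusted p under 0.05 over all 13685 rows). That is 1 of 36 higher and 3 of 36 lower, or 2.78% and 8.33%, against 6.72% and 4.59% of all tested rows. At an unadjusted p under 0.05, 4 were higher and 9 lower, or 11.1% and 25%, against 17.2% and 13.8% of all rows. After upper-quartile scaling of the libraries 1 was called higher (JARID2) and 7 lower (EZH1, EZH2, RING1, CBX2, CBX8, ASXL1 and KDM1A). Over all rows that scaling called 693 higher and 878 lower. Rescaling on rows of 1500 bp or more called the same regulators except KDM1A, and 846 rows higher and 686 lower among the long rows tested. With 1 library left out the 4 calls became 0 (without either naive male line or primed line 1), 1 (without either naive female line) or 2 (without primed line 2, when HDAC2 was higher and EHMT2 lower). Over all rows the calls fell as well in the same omissions, from 1548 to 266 and 261 without either naive male line, 177 without primed line 1, 463 and 305 without either naive female line and 1081 without primed line 2. The median log2 difference was -0.15 over the 36 regulators and 0.035 over all tested rows. In 7 regulators (19.4%) all 4 naive lines lay above both primed lines, and in 8 (22.2%) all lay below; over all tested rows the shares were 18.9% and 15.9%. The first of these shares is near the background.

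Split by sex, the male lines alone gave no called regulator. Naive male against primed had 0 calls in either direction, where 3.97% of all rows were higher and 1.42% lower; 2 regulators were higher (SUZ12 and JARID2) and 4 lower (EZH1, PHF1, RING1 and CBX8) at an unadjusted p under 0.05, or 5.56% and 11.1%, where 16.6% and 9.16% of all rows were. Naive female against primed had 1 higher (JARID2) and 4 lower (EZH2, CBX8, CBX2 and ASXL1), or 2.78% and 11.1%, where 5.55% and 5.41% of all rows were called. Both comparisons use the same primed libraries. Naive female against naive male had 0 higher and 1 lower (EZH2), where 0.76% and 2.55% of all rows were called. With 1 library left out, calls in naive female against primed lines changed among the regulators and fell over all tested rows in every omission. The difference kept its direction throughout, at 1.31 to 2.01 for JARID2, -1.01 to -0.91 for EZH2 and -1.76 to -1.62 for CBX8. It ran from -0.97 to -0.78 for CBX2 and from -1.01 to -0.77 for ASXL1.

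**Figure D1:**
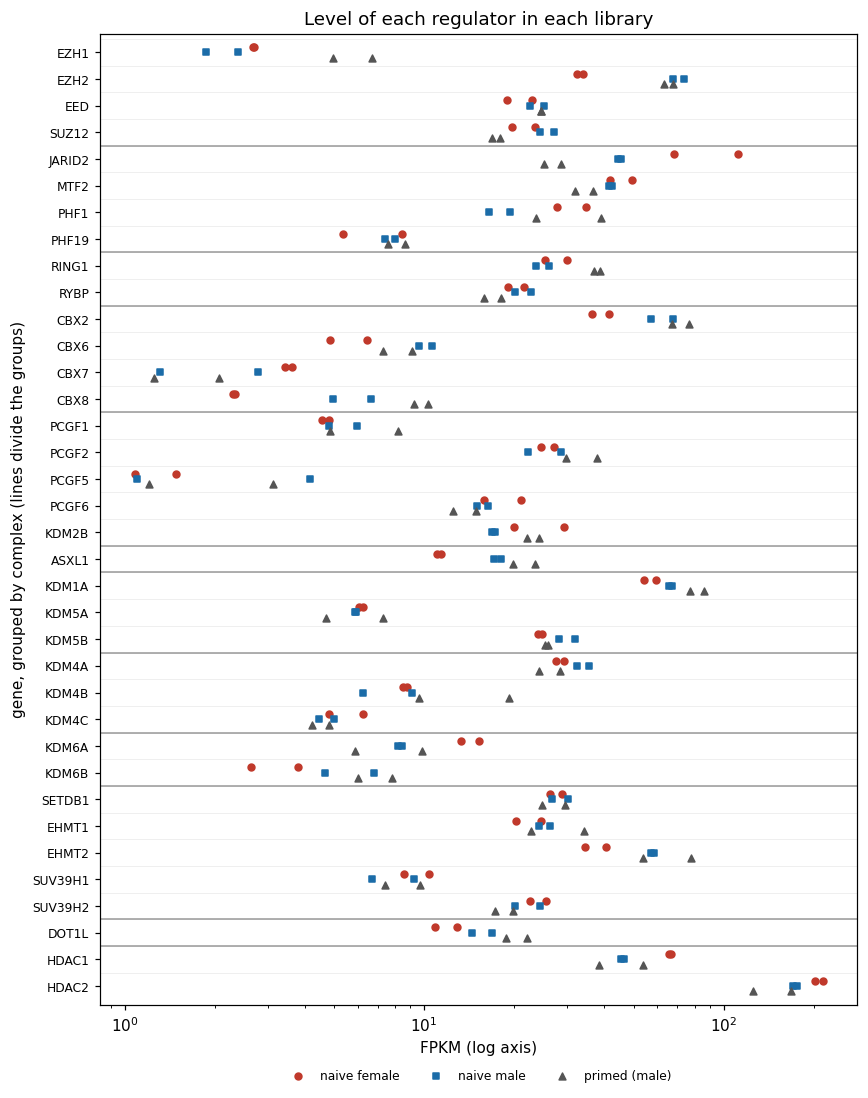
FPKM (log axis) of each of the 36 regulators in each library, with naive female (circles), naive male (squares) and primed lines (triangles), and lines dividing the complexes. Levels run over 2 orders of magnitude, with HDAC2 at the top and PCGF5 and CBX7 at the bottom, and the groups lie close together for most genes.

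Levels differed far more between the regulators than between the lines. Mean FPKM over the 6 lines ran from 2.03 for PCGF5 to 176 for HDAC2, with a median of 21.55, against 11.7 over all tested rows. The coefficient of variation of a regulator over the 6 lines had a median of 21.4% and ran from 7.8% for SETDB1 to 64.3% for PCGF5; the median over all tested rows was 26.4%. PCGF5 rested on only 2.4 to 31.1 effective fragments per library.

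**Figure D2:**
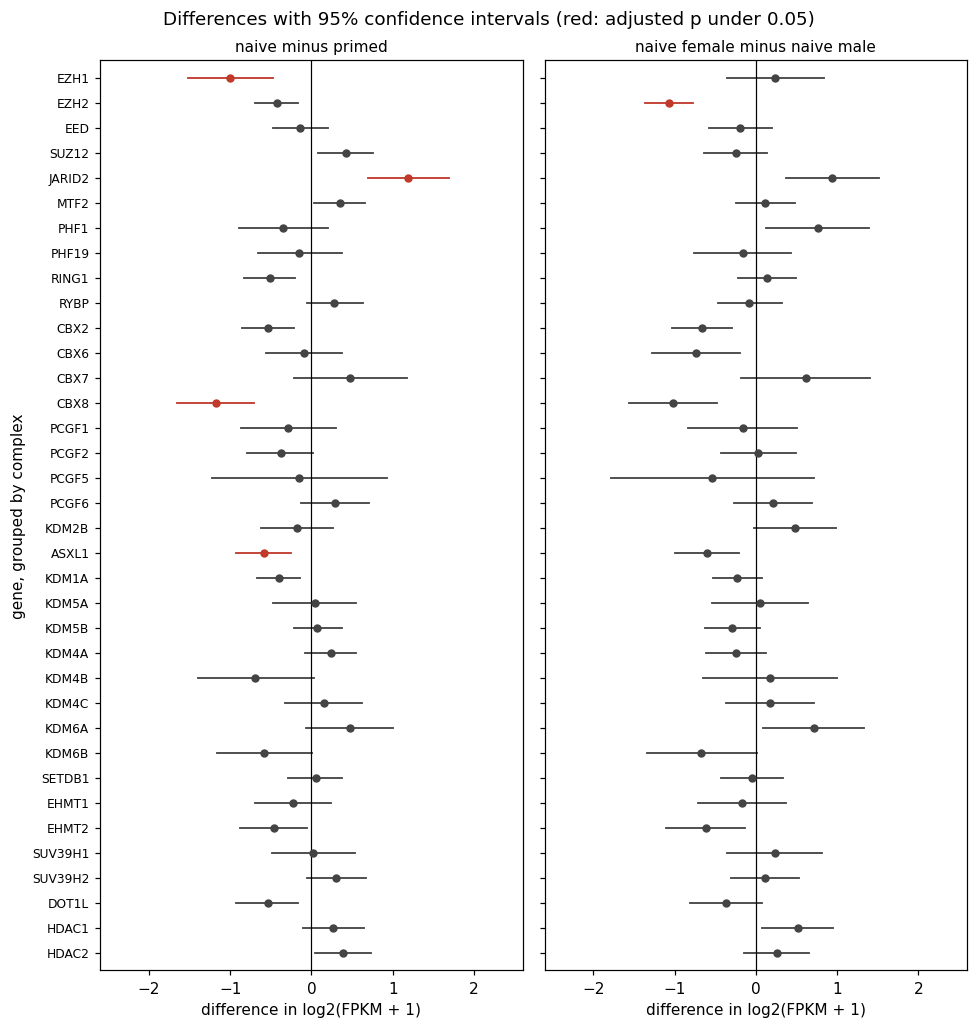
Difference in log2(FPKM + 1) for each of the 36 regulators with its 95% confidence interval, naive minus primed (left) and naive female minus naive male (right), in red where adjusted p is under 0.05. JARID2 is called to the right and EZH1, CBX8 and ASXL1 to the left in the left panel, and EZH2 alone is called in the right panel.

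Of the 4 PRC2 core subunits, EZH1 was lower in naive lines, and EZH2 was lower in naive female lines than in both other groups. EZH2, the main catalytic subunit of dividing cells (ENSMMUG00000013494, chromosome 3, 186122847 to 186198563), was at 32.4 and 33.8 FPKM in naive female lines, 73.5 and 67.6 FPKM in naive male lines and 67.8 and 63.0 FPKM in primed lines. Both naive female values lay below the other 4, and naive male and primed lines overlapped. EZH2 fell by 1.07 on the log2 scale in naive female against naive male lines (SE 0.13, 95% confidence interval -1.37 to -0.77, adjusted p = 0.0118) and by 0.96 against primed lines (SE 0.13, adjusted p = 0.0118; adjusted p up to 0.0801 without either naive female library). Naive male against primed gave 0.11 (interval -0.20 to 0.41, adjusted p = 0.639), and both sexes together gave -0.43 (SE 0.11, adjusted p = 0.0563). The call between naive lines was lost without any 1 of the 4 naive libraries (adjusted p up to 0.115), although the difference stayed between -1.13 and -1.01.

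EZH1, the catalytic subunit that prevails in non-dividing cells (ENSMMUG00000006093, chromosome 16, 52822566 to 52868168), was at 2.71 and 2.68 FPKM in naive female lines, 1.87 and 2.40 FPKM in naive male lines and 6.72 and 4.97 FPKM in primed lines. No naive line reached either primed line. The mean was 2.42 ± 0.388 FPKM in naive lines (SD, n = 4) and 5.84 ± 1.24 FPKM in primed lines (SD, n = 2), a log2 difference of -1.0 (SE 0.22, interval -1.52 to -0.47, adjusted p = 0.038). With either sex alone the difference was alike in size but not called, at -0.88 in naive female (adjusted p = 0.073) and -1.12 in naive male lines (adjusted p = 0.0581). EZH1 rested on 24 and 26 effective fragments in naive male libraries and on 162 to 486 in the others, and leaving out any 1 of the 6 libraries ended the call (adjusted p 0.0593 to 0.144, difference -1.18 to -0.81).

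The share of EZH1 in the summed FPKM of EZH1 and EZH2 was 7.73% and 7.35% in naive female, 2.49% and 3.44% in naive male and 9.01% and 7.31% in primed lines. Naive male lines had the lowest share, and the naive female range overlapped the primed range. The sum itself was 35.1 and 36.5 FPKM in naive female, 75.4 and 70.0 FPKM in naive male and 74.5 and 68.0 FPKM in primed lines.

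EED and SUZ12, the other core subunits, did not pass the test. EED, which binds the H3K27 mark and stimulates the complex, was at 18.9 to 25.2 FPKM in the 6 lines, with a difference of -0.14 (interval -0.47 to 0.20). SUZ12, the scaffold of PRC2, was at 23.4 and 19.7 FPKM in naive female, 24.3 and 27.2 FPKM in naive male and 16.8 and 17.9 FPKM in primed lines. All 4 naive values lay above both primed values, at a difference of 0.42 (SE 0.14, adjusted p = 0.103).

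**Figure D3:**
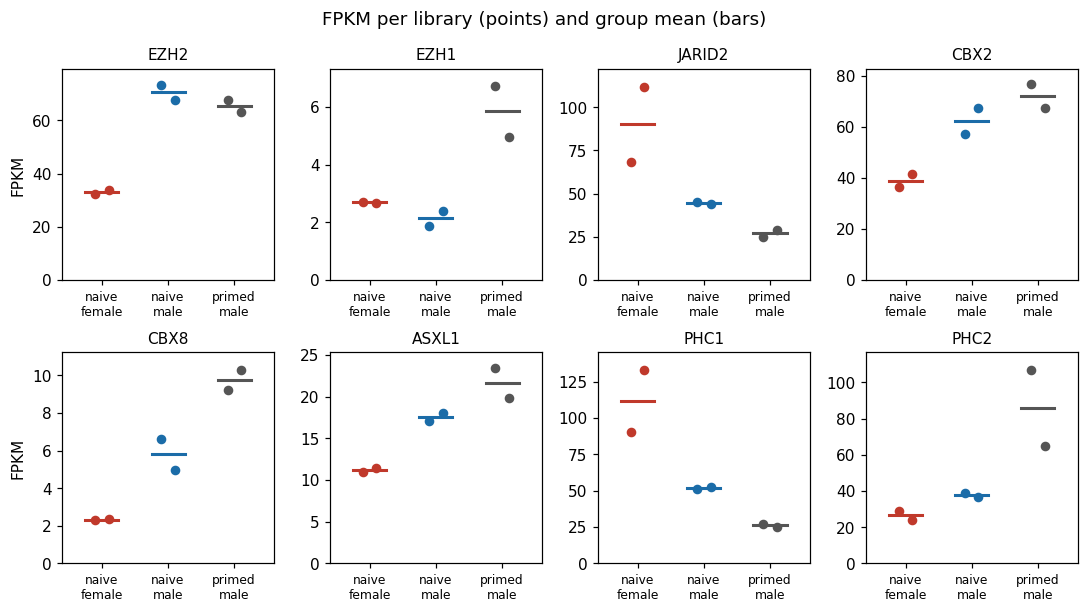
FPKM per library (points) and group mean (bars) of the 6 regulators called in any comparison and of the PRC1 subunits PHC1 and PHC2, for naive female, naive male and primed lines. EZH2 is low in naive female lines alone, and JARID2 and PHC1 run in the opposite direction to CBX8, ASXL1 and PHC2.

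Among the 4 regulators that are accessory subunits of PRC2, JARID2 alone was called. JARID2, which helps to bring PRC2 to its targets (ENSMMUG00000015362, chromosome 4, 15449709 to 15485609), was at 68.1 and 112 FPKM in naive female lines, 45.4 and 44.3 FPKM in naive male lines and 25.2 and 28.7 FPKM in primed lines. The 3 groups did not overlap, and the naive female lines were the highest and the most spread. JARID2 averaged 67.3 ± 31.5 FPKM in naive lines (SD, n = 4) and 26.9 ± 2.48 FPKM in primed lines (SD, n = 2), a ratio of mean FPKM of 2.50. The tested difference, in log2(FPKM + 1), was 1.19 (SE 0.21, interval 0.69 to 1.69, adjusted p = 0.0231). By sex the difference from primed was 1.66 in naive female lines (adjusted p = 0.0142) and 0.72 in naive male lines (adjusted p = 0.13). Naive female against naive male gave 0.94 (SE 0.24, adjusted p = 0.093). Without either naive male or either primed library JARID2 was not called in naive against primed lines (adjusted p up to 0.104), with a difference of 1.01 to 1.37 over the 6 omissions. The naive female call was lost without naive female line 2 and without primed line 1 (adjusted p up to 0.0659, difference 1.31 to 2.01). AEBP2, which joins JARID2 in the same form of PRC2, was at 38.2 and 54.2 FPKM in naive female, 25.1 and 31.5 FPKM in naive male and 24.3 and 23.0 FPKM in primed lines. All naive values lay above both primed ones; naive against primed gave 0.58 (adjusted p = 0.0918) and naive female against primed 0.92 (adjusted p = 0.045, not called without any 1 of the 6 libraries, adjusted p 0.0713 to 0.186).

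MTF2, PHF1 and PHF19, the Polycomb-like proteins that define the other form of PRC2, did not pass the test. MTF2 was at 49.5 and 41.6 FPKM in naive female, 41.3 and 42.5 FPKM in naive male and 31.8 and 36.5 FPKM in primed lines, with the naive lines above both primed lines (0.35, adjusted p = 0.132). PHF1 was at 27.8 and 34.7 FPKM in naive female, 19.4 and 16.5 FPKM in naive male and 23.6 and 38.8 FPKM in primed lines, where the primed lines alone spanned the naive female ones. PHF19 stayed between 5.38 and 8.64 FPKM in all lines.

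Relative to one another, JARID2, MTF2, PHF1 and PHF19 were ordered differently in the naive and the primed lines. JARID2 made up 45.2% and 56.8% of their summed FPKM in naive female, 39.8% and 40.0% in naive male and 28.6% and 25.5% in primed lines. PHF1 made up 18.4% and 17.7% in naive female, 17% and 14.9% in naive male and 26.8% and 34.5% in primed lines. JARID2 thus held the largest share in all 4 naive lines, whereas MTF2 did in primed line 1 and PHF1 in primed line 2. The mean share of JARID2 was 45.4 ± 7.99% in naive lines (SD, n = 4) and 27 ± 2.18% in primed lines (SD, n = 2), a difference of 18.4 percentage points that was 14.6 to 20.3 with 1 library left out; it was not tested.

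**Figure D4:**
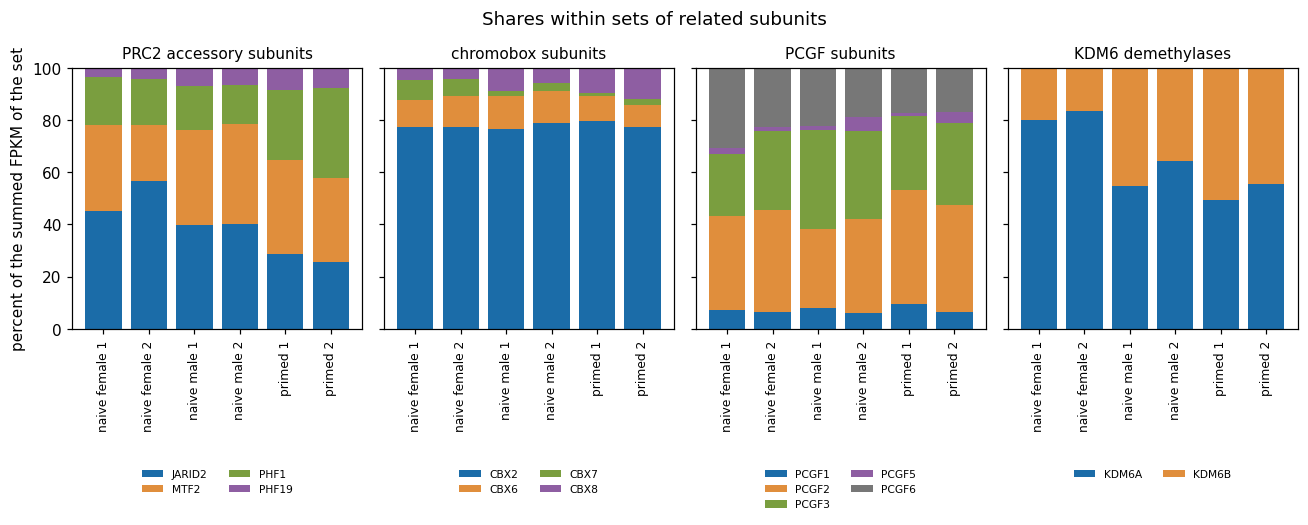
Percent of the summed FPKM that each subunit holds within its set, per library, for naive female, naive male and primed lines. JARID2 holds more of its set in naive lines, CBX2 holds 76.5% to 79.7% of the chromobox set in every line, and KDM6A holds 80.1% and 83.4% of the KDM6 pair in naive female lines.

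In PRC1, neither the E3 ligase RING1 nor RYBP passed the test, and they lay on opposite sides. RING1, which transfers ubiquitin to histone H2A (chromosome 4, 32923216 to 32926861), was at 25.4 and 29.9 FPKM in naive female, 26.2 and 23.7 FPKM in naive male and 38.7 and 37.0 FPKM in primed lines. Naive lines of both sexes lay below both primed lines by a like amount, and the difference was -0.51 (SE 0.13, interval -0.83 to -0.20, adjusted p = 0.0556). After upper-quartile scaling RING1 was called lower, also in naive male against primed lines. RYBP, the subunit of variant PRC1, was at 21.6 and 19.0 FPKM in naive female, 20.1 and 22.8 FPKM in naive male and 15.9 and 18.1 FPKM in primed lines (0.28). RNF2, the other E3 ligase, read from a row that the files leave unnamed, was at 64.1 and 57.7, 62.3 and 49.5, and 49.5 and 45.9 FPKM in the same groups (0.28, adjusted p = 0.221).

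CBX8 was the chromobox subunit with a called difference between naive and primed lines, and CBX2 joined it in naive female lines. CBX8 (ENSMMUG00000016417, chromosome 16, 75235679 to 75237475) was at 2.31 and 2.34 FPKM in naive female lines, 6.64 and 4.95 FPKM in naive male lines and 9.24 and 10.3 FPKM in primed lines. The groups did not overlap, and the naive female lines were the lowest. CBX8 averaged 4.06 ± 2.12 FPKM in naive lines (SD, n = 4) and 9.76 ± 0.736 FPKM in primed lines (SD, n = 2), a log2 difference of -1.18 (SE 0.19, interval -1.65 to -0.71, adjusted p = 0.0206). Naive female against primed gave -1.69 (adjusted p = 0.012), naive male against primed -0.67 (adjusted p = 0.131) and naive female against naive male -1.02 (SE 0.22, adjusted p = 0.0702). CBX8 rested on 13 and 16 effective fragments in naive female, 8 and 5 in naive male and 63 and 55 in primed libraries; the deposited bounds for naive male line 2 ran from 0.523 to 9.39 FPKM. Leaving out any 1 library ended the call in naive against primed lines (adjusted p 0.0554 to 0.0764, difference -1.27 to -1.09). The naive female call was lost without either naive female line or primed line 1 (adjusted p up to 0.0883, difference -1.76 to -1.62).

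CBX2 (ENSMMUG00000016416, chromosome 16, 75219919 to 75225619) lies next to CBX8 in the files' coordinates, 10059 bp away. It was at 36.4 and 41.5 FPKM in naive female lines, 57.2 and 67.5 FPKM in naive male lines and 76.8 and 67.4 FPKM in primed lines. Naive female lines lay below the other 4, while naive male and primed lines overlapped. The difference was -0.87 in naive female against primed lines (SE 0.15, adjusted p = 0.0228) and -0.54 for both sexes (SE 0.13, adjusted p = 0.0509). The naive female call held in 1 of 6 omissions, that of primed line 2, with adjusted p up to 0.109 in the others.

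CBX6 and CBX7, 248915 bp apart on chromosome 10 in the files' coordinates, did not follow CBX2 and CBX8 in every group. CBX6 was at 4.84 and 6.47 FPKM in naive female, 9.58 and 10.6 FPKM in naive male and 9.08 and 7.27 FPKM in primed lines (-0.09 for naive against primed). CBX7, described in mouse embryonic stem cells as the main chromobox subunit, was low throughout, at 3.62 and 3.44 FPKM in naive female, 1.31 and 2.78 FPKM in naive male and 1.25 and 2.06 FPKM in primed lines. It was highest in the naive female lines, with a difference from primed lines of 0.79 (interval -0.01 to 1.59, adjusted p = 0.168). CBX2 held 76.5% to 79.7% of the summed FPKM of these 4 subunits in every line, CBX8 held 4.90% and 4.36% in naive female, 8.89% and 5.77% in naive male and 9.58% and 11.8% in primed lines, and CBX7 held 7.68% and 6.39%, 1.76% and 3.24%, and 1.29% and 2.37%.

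The PCGF subunits decide the form of PRC1, and neither the 4 among the regulators nor PCGF3, from the list of other PRC1 genes, passed the test, nor did KDM2B. PCGF2 (MEL18), of canonical PRC1, was at 24.6 and 27.1 FPKM in naive female, 22.2 and 28.6 FPKM in naive male and 37.9 and 29.8 FPKM in primed lines; all naive lines lay below (-0.38, interval -0.79 to 0.02). PCGF6, of a variant PRC1 known for silencing germ cell genes in mouse embryonic stem cells, was at 21.0 and 15.9 FPKM in naive female, 16.4 and 15.0 FPKM in naive male and 14.9 and 12.5 FPKM in primed lines, with all naive lines above (0.29). PCGF3 was at 16.2 and 21.2 FPKM in naive female, 28.3 and 27.1 FPKM in naive male and 24.7 and 22.9 FPKM in primed lines (-0.07, adjusted p = 0.802). PCGF1 (4.55 to 8.19 FPKM) and PCGF5 (1.08 to 4.17 FPKM) were the lowest of the 5. Of the summed FPKM of these 5, which leaves out BMI1, PCGF2 averaged 35.2 ± 3.70% in naive and 42.2 ± 2.02% in primed lines, and PCGF6 23.6 ± 5.12% in naive and 17.1 ± 0.0971% in primed lines (SD, n = 4 and 2), with no overlap in either. KDM2B, which guides the PCGF1 form to CpG islands, was at 19.9 and 29.3 FPKM in naive female, 16.8 and 17.2 FPKM in naive male and 24.1 and 22.0 FPKM in primed lines (-0.18).

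ASXL1, a cofactor of the deubiquitinase that removes the PRC1 mark (ENSMMUG00000007117, chromosome 10, 32140935 to 32213822), was lower in naive lines. It was at 11.0 and 11.4 FPKM in naive female lines, 17.1 and 18.0 FPKM in naive male lines and 23.5 and 19.8 FPKM in primed lines. The groups stood in that order without overlap. The log2 difference was -0.59 for naive against primed lines (SE 0.14, interval -0.93 to -0.25, adjusted p = 0.0493), -0.89 for naive female (adjusted p = 0.0255) and -0.29 for naive male lines. Leaving out any 1 library ended the first call (adjusted p 0.0624 to 0.16, difference -0.71 to -0.47), and so did a pseudocount of 0.1 and testing without the filter on low values. The naive female call was kept in 1 of 6 omissions, that of primed line 2 (adjusted p up to 0.126), and was lost with the replicate block (adjusted p = 0.0591).

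No histone demethylase among the regulators passed the test in any of the 4 comparisons. KDM1A (LSD1), which removes methyl groups from H3K4, was at 54.1 and 59.4 FPKM in naive female, 67.1 and 65.9 FPKM in naive male and 77.1 and 86.2 FPKM in primed lines. The groups did not overlap, and the difference was -0.40 (SE 0.11, interval -0.67 to -0.14, adjusted p = 0.0658). After upper-quartile scaling KDM1A was called lower. KDM5A and KDM5B, the other H3K4 demethylases, stayed at 4.69 to 7.27 FPKM and 24.0 to 31.9 FPKM, with differences of 0.04 and 0.07. KDM4A, KDM4B and KDM4C act on H3K9 and H3K36. KDM4B was at 8.79 and 8.51 FPKM in naive female, 9.08 and 6.24 FPKM in naive male and 9.62 and 19.2 FPKM in primed lines, so that 1 primed line stood apart from the other 5. KDM3A, an H3K9 demethylase outside the 36, showed the same line apart, at 8.60 and 8.81, 7.51 and 7.69, and 9.87 and 21.2 FPKM. KDM4A (24.2 to 35.4 FPKM) and KDM4C (4.21 to 6.23 FPKM) varied little.

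The H3K27 demethylases KDM6A and KDM6B lay on opposite sides of the other lines in naive female lines, and neither passed the test. KDM6A (UTX), encoded on the X chromosome (42611323 to 43277010), was at 15.2 and 13.3 FPKM in naive female, 8.19 and 8.44 FPKM in naive male and 5.89 and 9.81 FPKM in primed lines. Both naive female values were above the other 4, at a difference of 0.71 from naive male (SE 0.25, interval 0.09 to 1.33, adjusted p = 0.184) and 0.82 from primed lines (adjusted p = 0.0898). KDM6B (JMJD3) was at 3.79 and 2.65 FPKM in naive female, 6.80 and 4.65 FPKM in naive male and 6.00 and 7.84 FPKM in primed lines, the naive female values being the lowest (-0.91 against primed, adjusted p = 0.0867). KDM6A held 80.1% and 83.4% of the summed FPKM of the pair in naive female, 54.7% and 64.5% in naive male and 49.5% and 55.6% in primed lines. Over the regulators and the other genes of the pathway that lie on the X chromosome, 6 of 12 were higher in naive female than in naive male lines and none was called (median 0.01).

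None of the H3K9 methyltransferases passed the test in any comparison. SETDB1, which silences retroelements, was the steadiest of the 36, at 28.8 and 26.3 FPKM in naive female, 26.7 and 30.2 FPKM in naive male and 29.6 and 24.7 FPKM in primed lines (0.05, interval -0.29 to 0.38). EHMT1 (GLP) was at 20.3 to 34.2 FPKM, and its partner EHMT2 (G9a) at 34.5 and 40.4 FPKM in naive female, 57.1 and 58.4 FPKM in naive male and 77.5 and 53.6 FPKM in primed lines. EHMT2 was lowest in naive female lines (-0.77 against primed, adjusted p = 0.0586), and the 2 primed lines lay on either side of the naive male ones. SUV39H1 lay at 6.69 to 10.4 FPKM in all lines, and SUV39H2 at 25.6 and 22.5 FPKM in naive female, 24.4 and 20.1 FPKM in naive male and 19.8 and 17.2 FPKM in primed lines, with a difference of 0.30. DOT1L, the H3K79 methyltransferase, was at 10.9 and 12.9 FPKM in naive female, 16.8 and 14.5 FPKM in naive male and 22.0 and 18.7 FPKM in primed lines. All naive lines lay below both primed lines, and the test did not call it (-0.54, SE 0.16, adjusted p = 0.0775).

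HDAC1 and HDAC2, the deacetylases of the NuRD, SIN3 and CoREST complexes, did not pass the test. HDAC2 was at 201 and 214 FPKM in naive female, 170 and 176 FPKM in naive male and 125 and 168 FPKM in primed lines, with every naive value above both primed values (0.39, SE 0.14, adjusted p = 0.126). HDAC1 was at 66.8 and 65.7 FPKM in naive female, 46.5 and 45.4 FPKM in naive male and 38.3 and 53.9 FPKM in primed lines, where naive male and primed lines overlapped (0.27). HDAC2 held 75.0% to 79.5% of the summed FPKM of the pair in every line.

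The other genes of the pathway were read from lists, of which 117 genes were tested and 2 were higher and 9 lower in naive lines, or 1.71% and 7.69%, against 6.72% and 4.59% of all tested rows. The medians of the 9 lists ran from -0.36 to 0.37 on the log2 scale, against 0.035 over all tested rows. In the list of 20 other PRC1 genes, PHC1 was higher and PHC2 and BCORL1 were lower. PHC1 and PHC2 are alternative polyhomeotic subunits of canonical PRC1. PHC1 (ENSMMUG00000017843, chromosome 11, 9062621 to 9089635) was at 90.7 and 133 FPKM in naive female lines, 51.1 and 52.6 FPKM in naive male lines and 27.2 and 25.2 FPKM in primed lines. PHC2 was at 28.9 and 24.1 FPKM in naive female lines, 39.0 and 36.4 FPKM in naive male lines and 107 and 65.1 FPKM in primed lines. Neither gene overlapped between any of the 3 groups, and their order was opposite. The difference from primed lines was 1.49 for PHC1 (SE 0.17, adjusted p = 0.0102) and -1.38 for PHC2 (SE 0.21, adjusted p = 0.0177).

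By sex, PHC1 was called in naive female lines (2.03, adjusted p = 0.0077), in naive male lines (0.96, adjusted p = 0.0478) and in naive female against naive male lines (1.07, adjusted p = 0.0452). Of the summed FPKM of PHC1, PHC2 and PHC3, PHC1 made up 74.0% and 83.0% in naive female, 54.6% and 56.6% in naive male and 19.6% and 26.5% in primed lines. The naive against primed call of PHC1 was lost without primed line 1 (adjusted p = 0.0558), and that of PHC2 without any library but primed line 2 (adjusted p up to 0.0717). In naive male against primed, PHC1 was called under none of the 6 other settings tried (adjusted p 0.0515 to 0.0806). The call between naive lines was lost in all 6 omissions (adjusted p 0.0532 to 0.205) and under 4 of the 6 other settings. NANOG lies 967598 bp from PHC1 on the same chromosome in the deposited coordinates, and a link between these genes was not tested. Like LHX1 below, NANOG passed the filter on low values only with naive lines, so its difference is not used here.

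Single genes of the remaining lists passed the test. LCORL, of 5 other PRC2 genes, was lower in naive lines (-1.13, adjusted p = 0.0476), as was OGT, of 8 genes around the deubiquitinase, at 35.8 and 41.9 FPKM in naive female, 41.9 and 41.6 FPKM in naive male and 67.5 and 64.6 FPKM in primed lines (-0.70, adjusted p = 0.0215). OGT attaches N-acetylglucosamine to proteins and lies on the X chromosome. Among 9 H3K36 and H4K20 methyltransferases, NSD2 was lower (-0.79, adjusted p = 0.0132), at 41.1 and 37.8 FPKM in naive female, 98.7 and 93.5 FPKM in naive male and 112 and 103 FPKM in primed lines. NSD2 and the H4K20 enzyme KMT5A were lower in naive female than in naive male lines (-1.26, adjusted p = 0.00688, and -1.02, adjusted p = 0.0345), as was SAP30 of the SIN3 complex (-1.21, adjusted p = 0.0375). In naive female against primed lines, KMT5A (-0.81, adjusted p = 0.0326), the H3K36 enzyme NSD3 (-0.70, adjusted p = 0.0362) and WIZ, a partner of EHMT1 and EHMT2 (-0.77, adjusted p = 0.0365), were lower, and the NuRD subunit MBD2 was higher (0.72, adjusted p = 0.0473). Of 18 genes of the HDAC complexes, RCOR2 (-0.67), SAP30 (-1.16) and GATAD2B (-0.69) were lower (adjusted p = 0.03, 0.0169 and 0.0491), and of 13 partners and readers of H3K9 methylation ZNF644 was higher (0.67, adjusted p = 0.0378). None of 13 H3K4 methyltransferase genes and none of 11 other demethylases was called in any of the 4 comparisons.

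These calls were sensitive to single libraries. In naive against primed lines LCORL, BCORL1, ZNF644 and GATAD2B were called in none of the 6 omissions, OGT and RCOR2 in 1 (without primed line 2), NSD2 and SAP30 in 2, and the total over the lists ran from 1 (without primed line 1) to 10 (without primed line 2). NSD2 in naive female against primed lines (-1.42, adjusted p = 0.00674) was called in all 6, and KMT5A, NSD3, WIZ and MBD2 in none. Between naive female and naive male lines NSD2, KMT5A and SAP30 each lost the call without any 1 of the 4 naive libraries (adjusted p up to 0.0844, 0.194 and 0.194), and under the 6 other settings NSD2 was called in all 6 and KMT5A and SAP30 in 1 each.

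Of 60 developmental regulators known as Polycomb targets, 57 had a row and 20 passed the filter on low values. IRX3, a homeobox gene, was lower in naive lines, at 5.66 and 3.95 FPKM in naive female, 4.97 and 5.92 FPKM in naive male and 31.3 and 18.4 FPKM in primed lines (-2.04, adjusted p = 0.0114; adjusted p = 0.0564 at most with 1 library left out). LHX1 was at 12.1 and 2.51 FPKM in naive female lines and at 0.0 and 0.0894 FPKM in primed lines. It passed the filter on low values only through naive lines. Its call in naive female against primed lines (2.70, limma adjusted p = 0.0436) is therefore not taken as evidence of a difference. LHX1 still enters the total over the lists given below for that comparison. The call was lost without that filter and with the replicate block (adjusted p up to 0.0812), and it held in 1 of 6 omissions (difference 1.75 to 3.65). The 57 rows together summed to 112 and 33.8 FPKM in naive female, 103 and 90.9 FPKM in naive male and 117 and 98.2 FPKM in primed lines; naive female line 2 was lowest, and the other 5 lay close together.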

How the data were processed

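Total RNA of 6 rhesus iPSC libraries was sequenced following an Illumina protocol, per the labels' protocols, and the submitters' processing notes name TopHat 1.3.0. The authors deposited FPKM per gene with its 2 error bounds and a status column, in the layout of Cufflinks tables, per the file headers. Build, annotation and strand are not given in the sources; coordinates are those of the files, counted from 1. Effective fragments were computed by doubling FPKM, dividing by the gap between FPKM and its upper bound and squaring; uncertain isoforms lower them too. The files hold no counts. The limma package (3.58.1, R 4.3.3) therefore tested log2(FPKM + 1), with group means as the model, a trended prior and 3 residual degrees of freedom. Benjamini-Hochberg adjustment ran over the 13685 rows past the filter; 40 rows were dropped for their status. Differences are on that log2 scale, which understates low genes. The script was checked on simulated data. Every regulator is named, with other genes of the pathway where called or set beside one; members, lists and rules were chosen with earlier results of these data known. No label ties a line to a donor, and p-values therefore speak of the spread between these libraries alone. With 1 library left out, the lone library of its group is assumed to vary like the others. Alternatives were the pseudocount, the filter, 3 scalings, a replicate block and omitted libraries.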

Additional observations from a re-analysis of the deposited data

Results flagged for a closer look

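EZH2 differed between naive lines of the 2 sexes by a test of the difference itself, with a log2 difference of -1.07 in naive female against naive male lines (32.4 and 33.8 FPKM against 73.5 and 67.6 FPKM, limma adjusted p = 0.0118). The naive male libraries were the shallowest, with 1754857 and 1478692 effective fragments against 8294782 and 10013491 in the naive female libraries, and sex, line and depth cannot be told apart here.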

How the results depend on the processing

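Rows called over all rows tested in the same setting stand in brackets. In naive against primed lines 4 regulators were called (1548 rows). The count was 2 without the filter on low values (941 rows) and 8 after upper-quartile scaling (1 higher and 7 lower, 1571 rows). It was 7 rescaled on rows of 1500 bp or more (1 and 6, 1532 rows), 2 with a replicate block (812 rows) and 0 with sex ignored (250 rows). Leaving out 1 library lowered both counts. For naive male against primed the count was 0 (738 rows), or 2 after upper-quartile scaling (748 rows). For naive female against primed it was 5, or 8 under upper-quartile scaling and under rescaling on long rows, 3 with the replicate block and 0 to 9 with 1 library left out. For naive female against naive male it was 1 (453 rows), also on long rows (93 rows) and with the block (207 rows). Leaving out any naive library ended that call. Over the other genes of the pathway, by alternatives chosen after seeing the data, the count in naive against primed lines was 11, or 7 without the filter, 7 with the replicate block, 1 with sex ignored, 7 without both naive male libraries and 1 to 10 in the omissions. Naive male against primed gave 3, with 0.855% higher and 1.71% lower, against 3.97% and 1.42% of all rows. It gave 1 with a pseudocount of 0.1 (652 rows) and 0 without the filter (400 rows). On long rows (413 rows) and with the block (373 rows) it gave 1 each. Leaving out 1 library lowered both counts. Naive female against primed gave 16, or 8 with the block and 2 to 14 in the omissions. Naive female against naive male gave 4, with 0.855% higher and 2.56% lower, against 0.76% and 2.55% of all rows. It gave 1 without the filter (268 rows), 2 under upper-quartile (325 rows) and 2 under median-of-ratios scaling (341 rows). On long rows (93 rows) and with the block (207 rows) it gave 1 each. Leaving out 1 library lowered this count, while over all rows the count rose without either primed line. The cause of these changes was not tested.

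Of 1850 recomputed differences of single regulators, 1694 kept their direction and side of the threshold, 56 lost a call, 22 gained one and 78 changed sign while called in neither fit. Share differences stayed within -3.76 to -1.99 percentage points for EZH1, 14.6 to 20.3 for JARID2, -5.83 to -3.60 for CBX8 and 13.8 to 23.4 for KDM6A. Libraries with the same number did not deviate together (r across genes of -0.06, -0.05 and -0.263), so the block pairs nothing known to be shared. Upper-quartile scaling moved the median of all rows from 0.09 to -0.057 in naive male against primed and from -0.104 to 0.008 in naive female against naive male.

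The limits are depth and number: naive male libraries give few fragments for low genes such as CBX8, EZH1 and PCGF5, and no group has more than 2 lines, so a difference that missed the threshold is not shown to be absent.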
